A study of Drosophila melanogaster with 42 samples.

Results

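Sex differences in RNA were measured in heads of adult Canton S *Drosophila melanogaster*, a wild-type strain, on 4 of the 42 2-colour oligonucleotide arrays of a study of the somatic sex hierarchy. The 4 arrays are those whose titles name wild-type Canton S heads, and each compared 1 sample of female heads with 1 sample of male heads. No measured value was used to choose them. The other arrays of the study compared the sexes of Berlin flies, the sexes in dissected central nervous system (CNS), and wild-type flies with mutants of the hierarchy.

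All flies were wild type, with no transgene or treatment, and were kept at 25 °C. The labels give an age of 0 to 24 h after eclosion, whereas the protocol collected flies of 8 to 24 h. About 100 heads were pooled per sample, and the methods describe the samples as independent biological ones. Females carried Cy5 on replicates 1 and 2 and Cy3 on replicates 3 and 4. Each value is a log2 ratio of female over male, so that 1 is a 2-fold higher signal in females and -1 a 2-fold higher signal in males. Ratios carry no level, so abundance cannot be compared between genes. In pooled heads, fewer cells of a type and less RNA per cell cannot be told apart.

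In *Drosophila*, the number of X chromosomes sets the activity of the splicing regulator *Sxl*, which acts through *tra* to direct sex-specific splicing of *dsx* and *fru*. The *dsx* products are transcription factors that direct female or male somatic development, and *fru* P1 products act in the male nervous system. *Sxl* also keeps females from assembling the dosage compensation complex, which raises transcription of the single X chromosome of males. The adult head holds brain, eyes, muscle, cuticle and a fat body, the tissue that makes yolk proteins in females.

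Between 8055 and 10857 of 16320 probes had a value on an array, and 8430 had a value on 3 or more arrays and were tested. Array medians lay between -0.062 and 0.004. Replicate 3 was the widest array, with an SD of 0.572 across probes against 0.315 to 0.363 on the other arrays. Across probes, the 2 arrays with females in Cy5 correlated at 0.59, the 2 with females in Cy3 at 0.21, and arrays of opposite orientation at 0.13 to 0.43. Probes are not independent, and these correlations are descriptions.

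At an adjusted p under 0.15 (limma's moderated test against 0, Benjamini-Hochberg over all tested probes), 27 probes were higher in females and 8 were higher in males. These are 0.32% and 0.0949% of the tested probes, and 0.415% together. All 35 called probes had the same sign on every array with a value, which a call on the mean of these same arrays favours. Among all 8430 tested probes, 889 had 1 sign toward females and 1137 toward males. Of the called probes, 21 differed by more than 2-fold (15 higher in females and 6 in males). Of the 46 tested probes over 2-fold, 25 were not called. The counts depended on single arrays: they were 13 and 7 without replicate 1, 15 and 6 without replicate 2, 63 and 17 without replicate 3, and 60 and 9 without replicate 4. A total of 15 called probes were called in each of these 4 fits. Among them, *dsx* and probe 7195 had no value on replicate 2, and *CG9676* and *lcs* none on replicate 4. For these probes, 1 of the 4 fits left out no value of their own. Exact sign flips of 4 arrays cannot give a p below 0.125, and with adjustment over 8430 probes no single probe could pass the threshold by that test.

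**Figure D1:**
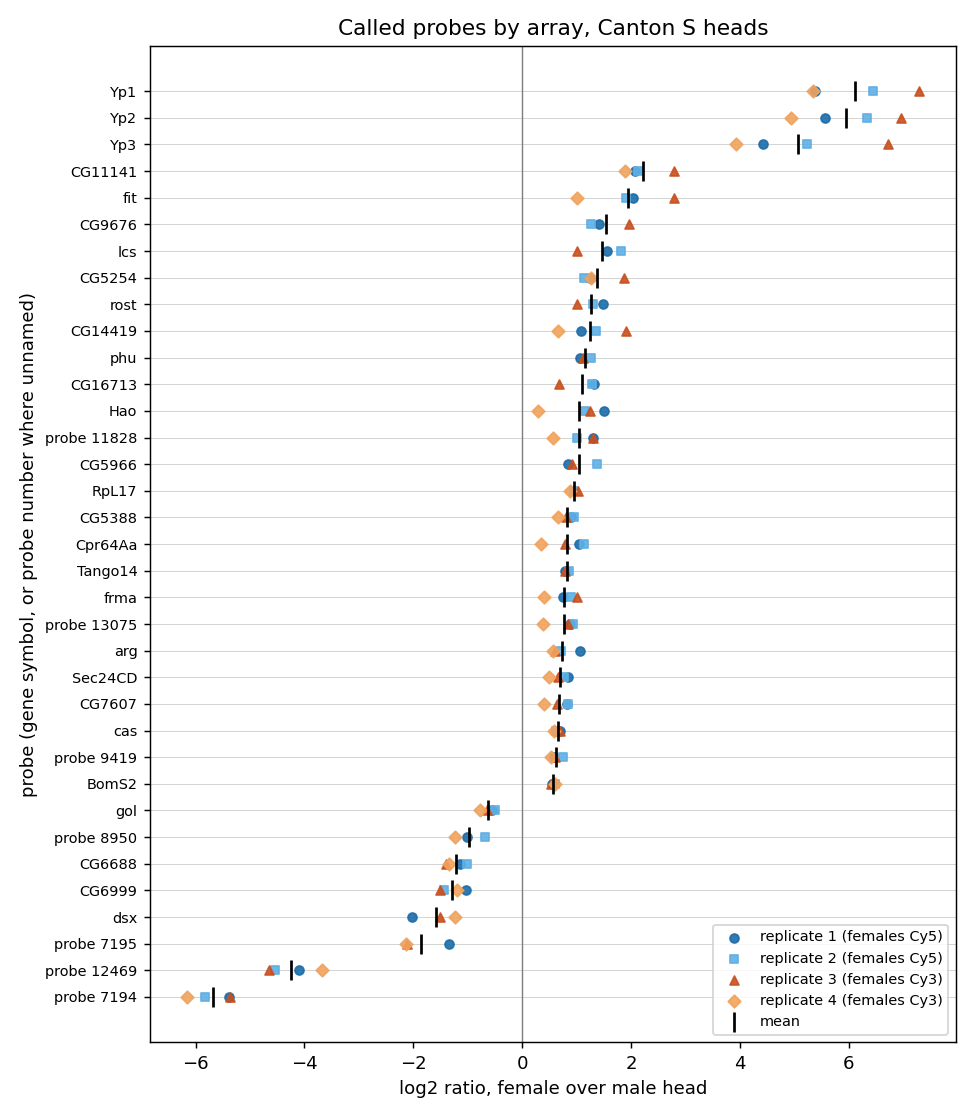
Log2 ratio of female over male on each of the 4 arrays (symbols) and their mean (bar) for the 35 called probes, ordered by mean. Every value lies on the side of its mean, from 7.29 for *Yp1* on replicate 3 to -6.16 for probe 7194 on replicate 4.

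The yolk protein genes, whose products are taken up by the growing egg, gave the largest ratios toward females. The log2 ratio of *Yp1* was 5.38, 6.45, 7.29 and 5.34 on replicates 1 to 4, with a mean of 6.11 (SE 0.30, n = 4, limma adjusted p = 6.8e-05). That of *Yp2* was 5.56, 6.33, 6.96 and 4.93, with a mean of 5.95 (SE 0.29, adjusted p = 6.8e-05). That of *Yp3* was 4.43, 5.22, 6.71 and 3.93, with a mean of 5.07 (SE 0.38, adjusted p = 0.00126). For each of the 3 genes replicate 3 was highest and replicate 4 lowest. The means correspond to ratios of 69.3, 61.6 and 33.7. *Yp1* and *Yp2* are immediate neighbours on the X chromosome in the RefSeq annotation (Release 6), and no other pair of called genes was adjacent in gene order.

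*fit* encodes a secreted protein of the fat body. Its log2 ratio was 2.04, 1.91, 2.80 and 1.01, with a mean of 1.94 (SE 0.25, adjusted p = 0.0292). All arrays were at or above a 2-fold difference, with replicate 3 highest and replicate 4 lowest.

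The genes *CG9676*, *lcs*, *CG5254*, *rost*, *CG14419*, *phu* and *CG16713* made up the rest of the named probes over 2-fold that were called in this direction, besides *CG11141*, *Hao* and *CG5966*. *CG9676*, listed as serine protease SP99, had log2 ratios of 1.41, 1.26 and 1.96 on replicates 1 to 3 (mean 1.54, SE 0.17, adjusted p = 0.0284). *lcs* had 1.55, 1.82 and 1.01 on the same arrays (mean 1.46, SE 0.18, adjusted p = 0.0382). *CG5254* had 1.24, 1.13, 1.87 and 1.26 (mean 1.37, SE 0.15, adjusted p = 0.0111). The lowest array of each of these genes exceeded a 2-fold difference. *rost*, known for its part in the fusion of embryonic myoblasts, had 1.49, 1.30 and 1.01 (mean 1.27, SE 0.15, adjusted p = 0.0317). *CG14419* had 1.08, 1.36, 1.91 and 0.66 (mean 1.25, SE 0.19, adjusted p = 0.0704). *phu*, listed as an alkaline phosphatase (Alp3), had 1.06, 1.27 and 1.11 (mean 1.15, SE 0.13, adjusted p = 0.0314). The arrays of *phu* differed least from each other among these genes. *CG16713* had 1.32, 1.27 and 0.68 (mean 1.09, SE 0.17, adjusted p = 0.113). Without replicate 1 the calls of *rost* (adjusted p = 0.1503) and *CG16713* (0.243) were lost, and without replicate 2 those of *phu* (0.195) and *CG16713* (0.411).

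The remaining female calls had mean log2 ratios of 0.57 to 1.04. They include *RpL17*, a protein of the large ribosomal subunit, at 0.95, 1.03 and 0.87 on replicates 2 to 4 (mean 0.95, SE 0.13, adjusted p = 0.0701). They include *Cpr64Aa*, a cuticle protein, at 1.03, 1.13, 0.78 and 0.35 (mean 0.82, SE 0.15, adjusted p = 0.135). *BomS2*, a short immune-induced peptide, had the smallest ratio of any call, at 0.55, 0.60, 0.53 and 0.60 (mean 0.57, SE 0.11, adjusted p = 0.147). Its 4 arrays were nearly level. The call of *RpL17* was lost without replicate 2 (adjusted p = 0.376) or 4 (0.173), that of *Cpr64Aa* without replicate 1 (0.254) or 2 (0.475), and that of *BomS2* without replicate 1 (0.294), 2 (0.581) or 4 (0.225). Replicate 4 was the lowest array for 17 of the 19 female calls with 4 values, and 7 called probes had no value on it.

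Toward males, the largest ratios belonged to probes with no gene name in the annotation given here. Probe 7194 was at -5.39, -5.83, -5.36 and -6.16 (mean -5.69, SE 0.16, adjusted p = 2.4e-06), the smallest p of all probes. Probe 12469 was at -4.09, -4.54, -4.65 and -3.68 (mean -4.24, SE 0.17, adjusted p = 2.6e-05). Probe 8950 was at -1.02, -0.69 and -1.23 on replicates 1, 2 and 4 (mean -0.98, SE 0.15, adjusted p = 0.113). The first 2 were called without any 1 array, whereas the call of probe 8950 was lost without replicate 1 (adjusted p = 0.243), 2 (0.164) or 4 (0.257).

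Among the called genes with a name, *dsx* had the largest ratio toward males. Its probe 3820 was at -2.02, -1.52 and -1.24 on replicates 1, 3 and 4 (mean -1.59, SE 0.18, n = 3, adjusted p = 0.0284). The other *dsx* probe, 6540, had no value on these arrays. The study used features specific for the male and the female *dsx* transcripts, whose probe numbers are not given in the sources used here, so the ratio may be that of 1 transcript and not of the gene. *CG6999* was at -1.04, -1.43, -1.52 and -1.20 (mean -1.29, SE 0.12, adjusted p = 0.0060). *CG6688* was at -1.14, -1.02, -1.39 and -1.34 (mean -1.22, SE 0.12, adjusted p = 0.0060). For these genes every array exceeded a 2-fold difference. *gol*, a RING-finger ubiquitin ligase, was at -0.55, -0.51, -0.65 and -0.78 (mean -0.62, SE 0.11, adjusted p = 0.133). Its call was lost without replicate 1 (adjusted p = 0.243), 2 (0.477) or 4 (0.225), and a second *gol* probe had a mean of -0.21 and was not called.

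Several called probes carried numbers just above that of a probe with a larger ratio of the same sign. *CG11141* (probe 2290) follows *Yp3* (2289) and was at 2.07, 2.14, 2.78 and 1.90 (mean 2.22, SE 0.16, adjusted p = 9.2e-04). *Hao* (2410), a hydroxyacid oxidase, stands 2 numbers after *Yp1* (2408) and was at 1.51, 1.15, 1.24 and 0.30 (mean 1.05, SE 0.19, adjusted p = 0.136). The call of *Hao* was lost without replicate 1 (adjusted p = 0.243), 2 (0.280) or 3 (0.154), with median-centred arrays (0.167) and with its probes averaged (0.231). Another *Hao* probe, 16009, was at 0.53, 0.10, 0.19 and 0.09 (mean 0.23) and was not called. Probe 7195 follows probe 7194 and was at -1.34, -2.11 and -2.14 on replicates 1, 3 and 4 (mean -1.87, SE 0.19, adjusted p = 0.0183). In the CNS probe 7195 had a mean of -1.42 (-1.52, -1.59 and -1.15), against -0.80 for probe 7194. *CG11141* and *Hao* had CNS means of -0.16 and -0.06. *cas* (16015) stands 2 numbers after *fit* (16013) with a mean of 0.65, and *CG5388* (16220) follows *CG5254* (16219) with a mean of 0.83. The calls of *cas* and *CG5388* were lost without replicate 1 (adjusted p = 0.243 and 0.152) or 2 (0.475 and 0.280). In all, 5 of the 35 called probes stood 1 to 5 numbers after a called probe of larger ratio, and 1 stood 1 to 5 numbers before one. The latter is *Cpr64Aa* (11827, mean 0.82), just before the unnamed probe 11828 (mean 1.04). Next to the 5 probes called at over 16-fold, the following probe had a median log2 ratio of 1.61 toward the sign of that probe (range 0.30 to 2.22, 5 probes) and the preceding one 0.27 (0.02 to 0.86, 3 probes with a value). Over all tested probes, ratios of consecutive numbers correlated at a Spearman's rho of 0.25 (5639 pairs), those 5 numbers apart at 0.04 and those 50 apart at -0.01. Whether probe numbers follow the order of printing is not given in the sources used here, and the part of number order in these calls was not tested. In a fit without the 96 probes that stand 1 to 5 numbers after a larger call, an alternative chosen after seeing the data, 20 probes were higher in females and 6 in males.

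**Figure D2:**
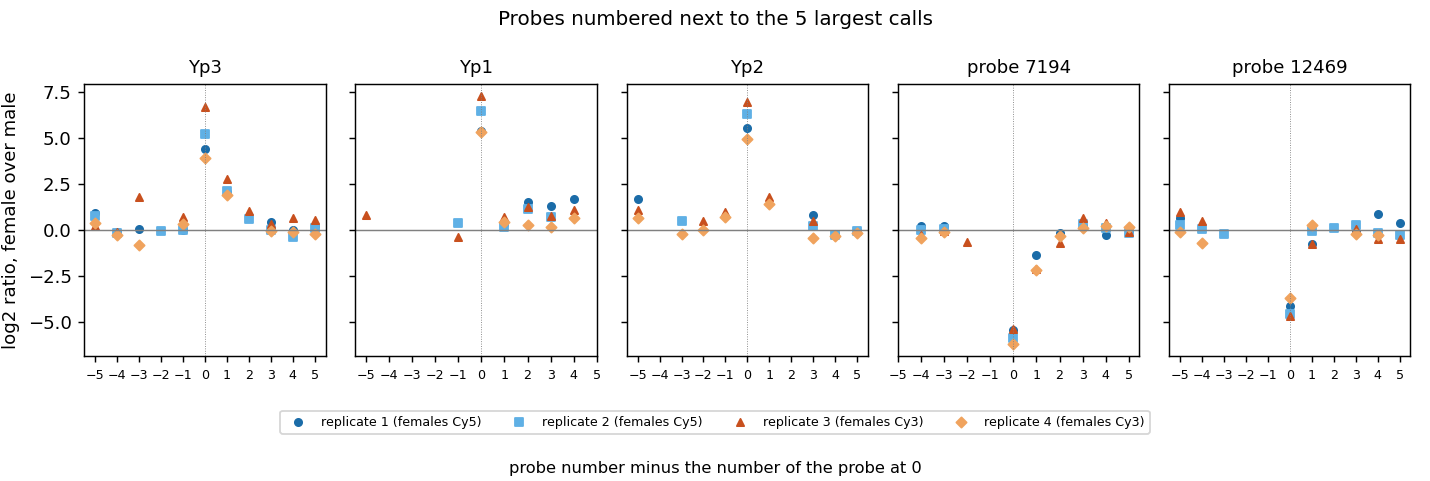
Log2 ratio of female over male on each array (symbols) for probes numbered from 5 below to 5 above the 5 largest calls, whose own values stand at 0 on the horizontal axis. Probes just above *Yp3*, *Yp2* and probe 7194 lie on the same side of 0 as that call, for example *CG11141* at 1.90 to 2.78.

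Within the sex hierarchy, 1 of 9 tested probes was called, namely *dsx*. *tra*, the splicing regulator that acts above *dsx* and *fru*, was at 0.47, 0.27, -0.01 and 0.55 (mean 0.32, SE 0.13, adjusted p = 0.453). The tested *fru* probe, 16173, was at -0.09, 0.28, 0.27 and 0.05 (mean 0.13, adjusted p = 0.729). The arrays of *tra* and of this *fru* probe fell on either side of 0. *fru* probes 2574 (-0.10 and -0.29) and 7797 (0.26 and 0.23) had only 2 values each and were not tested. Which *tra* and *fru* transcripts the probes read is not given in the sources used here. *ix*, which encodes a partner of the female DSX protein, had a mean of 0.15, *tra2*, a cofactor of *tra*, 0.01, and *vir* and *fl(2)d*, needed for *Sxl* splicing, -0.27 and 0.14. *sc* and *da*, activators of *Sxl*, had means of 0.05 and 0.04. The adjusted p of these genes lay between 0.637 and 0.992. *Sxl* itself was matched to no probe by name, so any unnamed probe that reads it could not be identified.

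None of the 6 tested dosage compensation probes was called. *Clamp*, which binds the X chromosome and recruits the complex, was nearest, at -0.59, -0.57, -0.30 and -0.09 (mean -0.39, SE 0.13, adjusted p = 0.376). *mle*, the RNA helicase of the complex, had a mean of -0.05, *msl-1*, its scaffold, -0.05, *JIL-1*, a histone kinase, -0.09, *nej*, an acetyltransferase, 0.16, and *Unr*, which represses *msl-2* translation in females, 0.07. *msl-2*, the subunit made in males, had only 2 values, -0.52 and -0.71, and was not tested. The *roX* RNAs of the complex were matched to no probe by name. Unnamed probes were tested, and whether any of them reads a *roX* RNA could not be told. The paper reports *rox2* as higher in males in the CNS.

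The X chromosome held 11 of the 27 female calls and 1 of the male calls, among 1151 tested probes (13.65% of all). These 11 are 0.956% of the tested X probes, against 13 of 6004 autosomal probes, or 0.217%. Without the probes just after a larger call the counts were 11 of 1134 and 6 of 5942. The median log2 ratio of X probes minus that of autosomal probes was -0.0039, 0.031, 0.032 and 0.0164 on replicates 1 to 4 (mean 0.0189 ± 0.0168, SD, n = 4, two-sided exact sign-flip p = 0.25). The arrays did not all fall on the same side of 0. With 4 arrays that test cannot give a p below 0.125, so it cannot decide whether X and autosomal probes differ.

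Gene lists of head tissues and processes are given by how many tested members had an unadjusted p under 0.05 in each direction, beside 5.49% (females) and 4.84% (males) of all tested probes. The median of all tested probes was -0.003. Members of a list were measured on the same arrays and are not independent.

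Antimicrobial and humoral immune genes had 13 of 21 tested probes at that level toward females (61.9%) and 0 toward males, with a median of 0.38, and 1 of them, *BomS2*, passed the adjusted threshold. The list's median was 0.55, 0.40, 0.38 and 0.13 on replicates 1 to 4. It was above the median of all probes on each array. In Berlin heads the same probes had a median of 0.24.

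The head fat body and secreted genes had 7 of 25 tested probes toward females (28%) and 2 toward males, with a median of 0.23. *fit* was called, and so was the *Hao* probe numbered near *Yp1*. *AkhR*, the receptor of adipokinetic hormone, was at 0.32, 0.55, 1.23 and 0.70 (mean 0.70, SE 0.16, adjusted p = 0.233), and *Tsf1*, a transferrin, at 0.40, 0.29, 0.63 and 0.35 (mean 0.42, adjusted p = 0.307). Both were above 0 on every array and neither was called. *tobi* was at 1.30, 1.67, 1.29 and -0.78 (mean 0.87, adjusted p = 0.455), and *sxe2* at -1.15, -0.64, 0.06 and -2.07 (mean -0.95, adjusted p = 0.344). By array the median was 0.34, 0.40 and 0.32 on replicates 1 to 3 and -0.14 on replicate 4, which thus lay on the other side of 0. The list was drawn up with sex-biased genes of this tissue in mind, so its direction is not independent evidence. *Cyp4d21*, a cytochrome P450 of this list, had only 2 values, -2.07 on replicate 2 and -4.06 on replicate 4, and was not tested. These 5 uncalled genes were singled out after their values were seen.

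Genes of amino acid, sugar and trehalose metabolism had 6 of 24 probes toward females and 0 toward males (median 0.24). The only called member, *phu*, is among the 6. It is listed as an alkaline phosphatase, so its place in this list is uncertain. Muscle genes, some of them read by several probes, had 9 of 42 probes toward females and 2 toward males (median 0.22), with none called. The muscle median was 0.11, 0.14 and 0.01 on replicates 1 to 3 and 0.57 on replicate 4, which stood apart, and the metabolism median was 0.23 to 0.27 on replicates 1 to 3 and -0.01 on replicate 4. The muscle gene of smallest p was *Zasp66*, a Z-disc protein, at 0.38, 0.44, 0.73 and 0.95 on replicates 1 to 4 (probe 15526, mean 0.62, adjusted p = 0.202). All arrays of this probe were above 0, as were those of *Zasp66* probes 2607 and 6271. *Zasp66* probe 8991 was at 0.18, 0.02, -0.21 and 1.22. Haemocyte and engulfment genes had 4 of 18 toward females and 0 toward males, led by *NimC4*, a receptor for dying cells, at 1.35, 0.94 and 2.99 on replicates 1 to 3 (mean 1.76, adjusted p = 0.209). Odorant-binding proteins had 5 of 24 toward females and 1 toward males, led by *Obp18a* (mean 0.61, adjusted p = 0.163), and cuticle and chitin genes 6 of 42 and 1. The odorant-binding median was 0.31 and 0.15 on the arrays with females in Cy5 and -0.09 and -0.04 on those with females in Cy3.

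Photoreceptor and phototransduction genes had 9 of 28 probes toward males (32.1%) and 1 toward females, with a median of -0.15 and none called. By array the list's median was -0.31, -0.24, 0.01 and -0.39, so that replicate 3 differed from the other arrays. The gene of smallest p was *rtp*, retinophilin, at -0.31, -0.59, -0.63 and -1.02 (probe 4509, mean -0.64, SE 0.14, adjusted p = 0.209). All its arrays were below 0, and in Berlin heads its mean was -0.06.

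Neuronal genes had 2 of 36 probes toward females and 1 toward males, the latter *VAChT*, the vesicular acetylcholine transporter, at -0.90, -0.62 and -0.54 (mean -0.69, adjusted p = 0.209). The neuronal median was 0.32 on replicate 3 and -0.35 to -0.02 on the other arrays. Glial genes (1 of 15 toward females and 2 toward males, led by *Eaat2*, a glutamate transporter, mean -0.50) and neuropeptide genes (1 and 3 of 25, led by *Lk*, leucokinin, mean -0.49) had medians of -0.19 and -0.08. Cytoplasmic ribosomal proteins had 3 of 31 toward females, with *RpL17* called, and mitochondrial respiratory chain genes 1 of 56, *COX7C* (mean 0.63, adjusted p = 0.408). None was toward males in either list. Cytochrome P450, takeout, Npc2, clock, stress and eye pigment lists had 0 called probes and at most 3 at the unadjusted level in a direction. Their probes of smallest p were *Cyp4e3* (mean 0.60), *Jhbp7* (0.35), *Npc2h* (-0.58), *vri*, a clock transcription factor (-0.38), *TotC* (1.18) and *car* (-0.44), with adjusted p of 0.263 to 0.393. *TotC*, a stress-induced peptide, was at 0.69, 0.82, 2.80 and 0.41, with replicate 3 apart from the others.

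**Figure D3:**
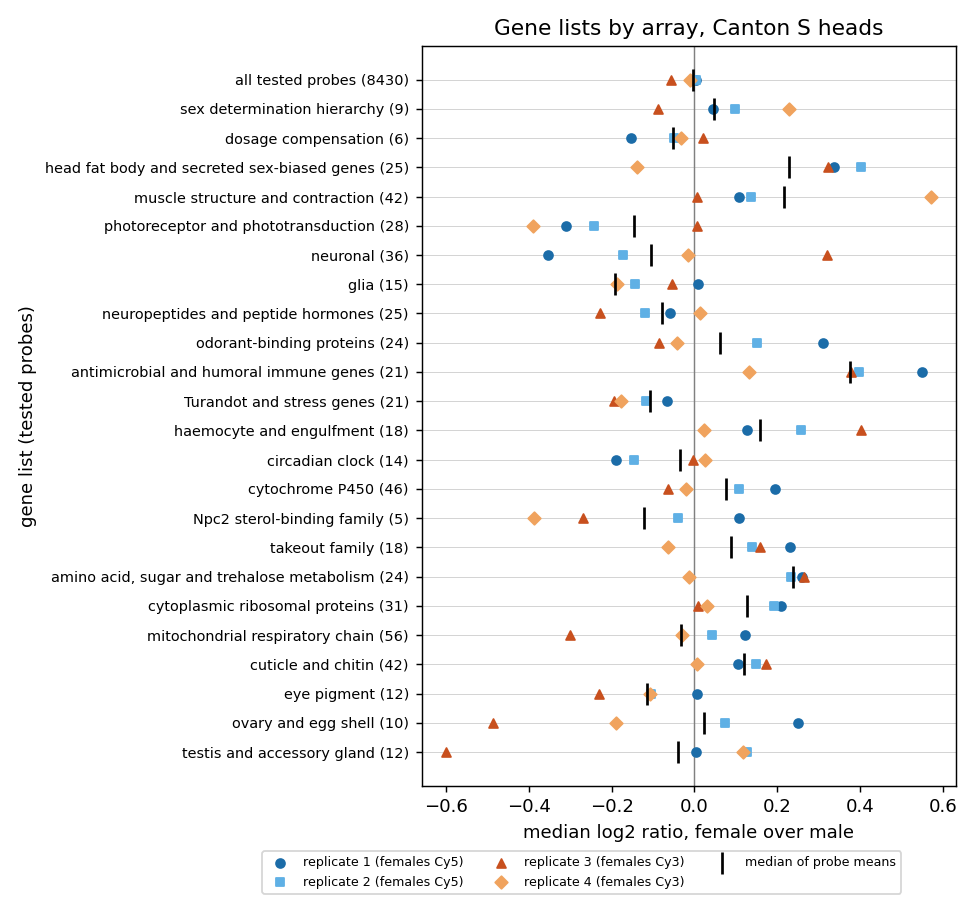
Median log2 ratio of female over male of the tested probes of each list on each array (symbols), with the median of probe means (bar) and the number of tested probes in brackets. The immune list lies between 0.13 and 0.55 on all 4 arrays, while the neuronal and photoreceptor lists lie higher on replicate 3 than on the others.

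Genes of tissues outside the head were examined by array. Probes of the testis and accessory gland list had a median of -0.94 on replicate 3, where 6 of the 14 with a value were below -1, against medians of -0.02, 0.07 and 0.08 on replicates 1, 2 and 4, where 1 of 11, 0 of 15 and 0 of 13 were. The lowest were accessory gland genes: *Acp98AB* at -7.86, its single value, *Mst57Da* at -2.63 and *EbpII* at -2.59. On replicate 2 *Mst57Da* and *EbpII* were at 0.05 and -0.18. In Berlin heads 3 of the 25 probes with a value on replicate 6 were below -1, namely *Ebp* at -4.27, *EbpII* at -2.03 and *Acp98AB* at -1.15, and none was on the other Berlin arrays. Ovary and egg shell probes had no value below -1 on any of the 4 arrays and 1 above 1, *orb* at 1.14 on replicate 4. Their median was 0.25, 0.05, -0.49 and -0.24 on replicates 1 to 4. It was thus also lowest on replicate 3, where all 7 probes with a value were below 0 (-0.75 to -0.03). Of the tested members, 0 of 12 and 0 of 10 were called, and the smallest p belonged to *Mst84Db* (mean -1.39, adjusted p = 0.337) and *bam* (mean -0.30, adjusted p = 0.500).

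The flight muscle genes *Act88F*, *fln* and *TpnC4* varied between arrays in the same order. *Act88F*, the actin of indirect flight muscle, was at -4.91, -0.84, -5.27 and 1.23 on replicates 1 to 4 (mean -2.45, SE 0.97, adjusted p = 0.443). *fln*, flightin, was at -3.63, -0.53, -3.73 and 1.31 (mean -1.65, SE 0.76, adjusted p = 0.504). *TpnC4* was at -4.03 and -5.33 on replicates 1 and 3 and had no value on the other 2. The low values stood on 1 array of each dye orientation, and replicate 4 lay on the other side of 0. In Berlin heads *Act88F* and *fln* were at -3.77 and -4.98 on replicate 6 and at 0.54 and 0.02 on replicate 5. These genes and the accessory gland genes were singled out after their values were seen. The part of these tissues in the calls was not tested, and the calls without replicate 1 and without replicate 3 are given above.

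**Figure D4:**
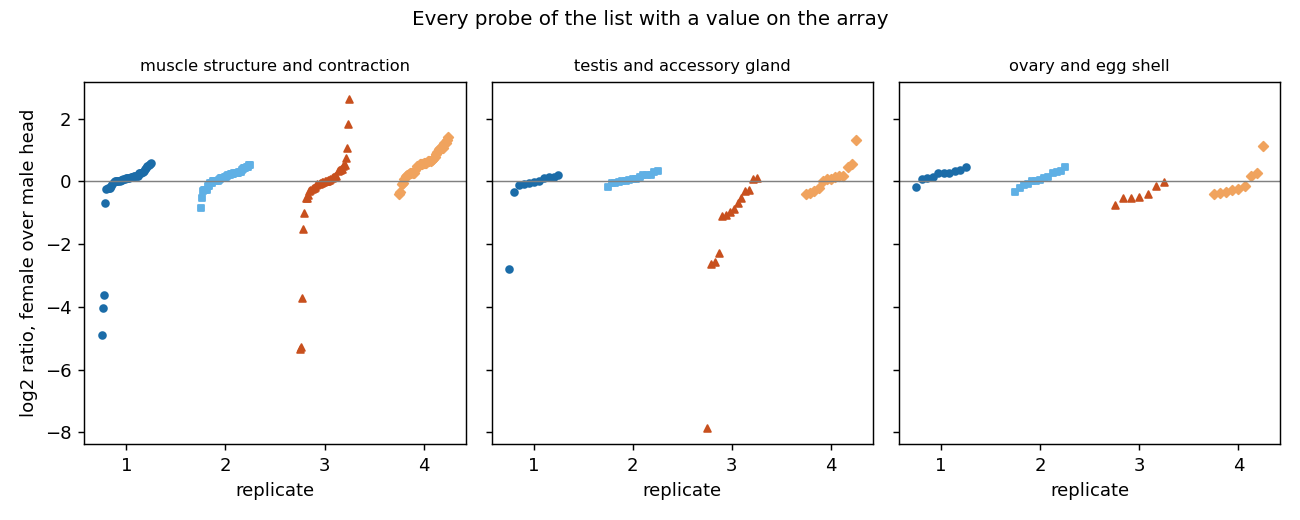
Log2 ratio of female over male of every muscle, testis and accessory gland, and ovary and egg shell probe with a value, by array, in order of value. The lowest muscle probes, *Act88F*, *fln* and *TpnC4*, stand at -5.33 to -3.63 on replicates 1 and 3 only, and the lowest accessory gland probe at -7.86 on replicate 3.

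The strain difference asks where the sex difference of Canton S heads departs from that of Berlin, another wild-type strain, with 4 arrays of the same tissue and age. None of the 7391 probes with 3 or more values in each strain was called (0%, limma on the difference of means). In that fit 407 (5.51%) had an unadjusted p under 0.05, near the share that threshold passes with no difference. A test of each probe on its own variance, with the same adjustment, also called 0, with 365 (4.94%) at the unadjusted level. Of the 35 called probes, 33 had a Berlin mean of the same sign, the exceptions being *lcs* and *gol*, against 59.5% of the tested probes that were not called. *Yp2* had the smallest p of the difference: its Berlin arrays were at 8.34, 7.80, 8.49 and 7.76, above all 4 Canton S arrays, and the Canton S mean was lower by 2.15 (SE 0.37, adjusted p = 0.547). Without Canton S replicate 3 that difference was the 1 probe called (-2.49, adjusted p = 0.034).

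*CG30060* and *Lst8*, also among the smallest p toward Berlin, are probes 2412 and 2411, which stand 4 and 3 numbers after *Yp1*. *CG30060* had means of 1.16 in Canton S and 2.60 in Berlin, and *Lst8* 0.75 and 1.78. The other probes toward Berlin were *ebd1*, *CG4757* and *CG3348*, with differences of -1.02, -0.84 and -0.83. Toward Canton S they were *CG13739*, *Def*, *CG13984*, *CG16758*, *Cpr62Ba* and *CG9396*, with differences of 0.82 to 1.29. *CG3348* and *ebd1* are consecutive probes (13780 and 13781), as are *Def* and *Cpr62Ba* (10372 and 10373), and the part of number order in these differences was not tested. *Def*, which encodes the antibacterial peptide defensin, was at 0.49, 0.40, 0.58 and 0.11 in Canton S and at -0.99, -0.23, -0.45 and -0.56 in Berlin. The strains did not overlap for this gene, and the adjusted p was 0.547. *lcs* was at -3.78, 0.39, 1.22 and -0.83 in Berlin, a wide spread, and its difference of 2.21 had an SE of 0.92 (adjusted p = 0.796).

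The tissue difference asks where the sex difference of heads departs from that of dissected brain and ventral nerve cord of the same strain and age (4 arrays, about 20 animals per sample). CNS RNA was amplified before labelling and head RNA was not, so tissue and labelling cannot be told apart. CNS arrays of opposite dye orientation correlated at -0.47 to -0.31 across probes, and each orientation was used on 2 arrays. Of 6147 tested probes, 8 were called (0.13%).

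Of these 8, 7 were also called between the sexes in heads, each with the larger ratio in heads. *Yp1* was at 0.80, 0.96, 0.58 and 0.78 in the CNS, a mean of 0.78, and the difference of head minus CNS was 5.33 (SE 0.36, adjusted p = 2.7e-06). *Yp2* and *Yp3* had CNS means of 0.34 and 0.51 and differences of 5.60 and 4.57 (adjusted p = 3.1e-05 and 2.4e-04). No CNS array of these genes reached the lowest head array. *CG11141*, the probe after *Yp3*, had a CNS mean of -0.16 and a difference of 2.38 (adjusted p = 5.4e-04), and *CG5254* 0.13 and 1.25 (adjusted p = 0.0826). Probe 7194 was at -0.59, -0.59, -0.51 and -1.52 in the CNS and differed by -4.88 (SE 0.27, adjusted p = 4.0e-07). Probe 12469 was at -2.53, -1.94, -1.67 and -2.37 in the CNS and differed by -2.11 (SE 0.27, adjusted p = 0.00177). Both probes were below 0 on every array of both tissues. The call of *CG5254* was lost when any 1 of the 4 head arrays was left out (adjusted p = 0.182 to 0.237).

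The eighth probe, *5-HT2B*, a serotonin receptor, was not called in heads. It was at -0.09, 0.16, 0.73 and -0.47 in heads and at -1.92, -2.94 and -2.32 in the CNS, a difference of 2.47 (SE 0.32, adjusted p = 0.00287). The tissues did not overlap for this gene. Among head calls that did not differ, *fit* was at 1.62, 2.15, 2.18 and 2.01 in the CNS, and its difference was -0.05 (adjusted p = 0.999). Past the called probes, the smallest p toward a lower ratio in heads belonged to *CG6688*, *Scp1*, *VAChT* and *Cht2*, with differences of -0.92, -1.04, -0.85 and -0.79 (adjusted p = 0.688 to 0.999). In all, 23 of the 30 called probes with a CNS value had the same sign there, against 51.4% of the probes not called.

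**Figure D5:**
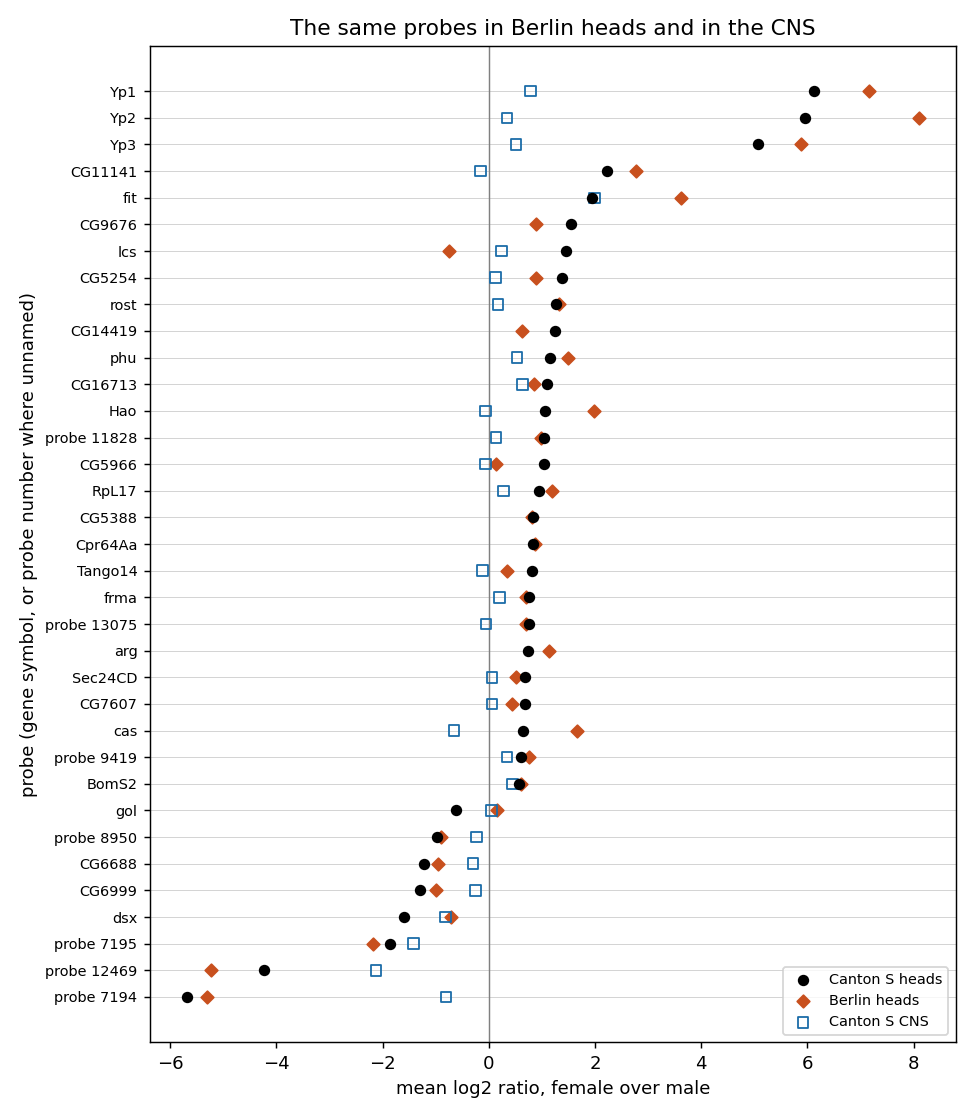
Mean log2 ratio of female over male for the 35 called probes in Canton S heads (filled circles), Berlin heads (diamonds) and the Canton S CNS (open squares), in the order of the Canton S means. The yolk protein genes lie between 5.07 and 8.10 in heads of both strains and between 0.34 and 0.78 in the CNS. *fit* lies at 1.94 in Canton S heads, at 1.99 in the CNS and at 3.62 in Berlin heads, where it had only 2 values (3.45 and 3.80).

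Just inside the threshold, *BomS2* had an adjusted p of 0.147 and a log2 ratio of 0.57. Just outside it, *CG1863* had an adjusted p of 0.152 and log2 ratios of 0.82, 0.84 and 0.65 on replicates 1 to 3. *CG10621*, at 0.156, had 0.78, 0.84, 0.83 and 0.30. These probes had the same direction on every array with a value, as did *Pal2* toward males at -0.47, -0.66, -0.54 and -0.54 (adjusted p = 0.163). Larger ratios with a wide spread were not called either: *Diedel*, a secreted immune factor, was at 2.08, 2.68, 3.79 and -0.36 (mean 2.05, SE 0.54, adjusted p = 0.292), and *whe* at 2.49, 0.48 and 4.37 on replicates 2 to 4 (mean 2.45, SE 0.61, adjusted p = 0.289). For *Diedel* replicate 4 alone lay on the other side of 0. These probes were named after their values were seen.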

How the data were processed

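The log2 ratios were deposited by the authors, who scanned the arrays, removed poor features by eye, kept features where over 75% of pixels exceeded background by 1 SD, and normalized within each array by lowess in Bioconductor. Versions are not given in the sources used here. Nothing was normalized again. The direction (female over male) was checked by the yolk protein genes, which were positive on both dye orientations. Of 16320 probes, 12913 carry 1 gene symbol, updated through the RefSeq gene table (Release 6) for 12389, and 3407 are unnamed. Arrays limit precision by their number, 4 per group. The p-values set each mean against the spread between these samples, which limma moderates across probes.

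Probes with 3 or more values were tested in R 4.3.3 with limma 3.58.1 against 0 or between groups, with Benjamini-Hochberg adjustment and a threshold of 0.15. Functions were tested on simulated data. SE is limma's moderated SE. Named genes are the yolk proteins, the tested sex hierarchy and dosage compensation genes, the 12 largest named calls per direction, the called or else smallest-p member of each list, and the 6 smallest p per direction of both difference tests. Other named genes were chosen after their values were seen. The arrays, gene lists and rules were chosen with earlier results of these data known. The alternatives are given in the closing section. Sequences were not used here.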

Additional observations from a re-analysis of the deposited data

Results flagged for a closer look

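Of 46 named probes with 4 values, 1 had an array far from the others by Dixon's criterion, which chance meets in about 5% of groups. *CG5254* was at 1.87 on replicate 3 and between 1.13 and 1.26 on the other 3 arrays.

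The sex difference differed between Canton S heads and CNS, by the test of the difference itself, for 8 probes. The difference of log2 ratios, head minus CNS, was 5.33 for *Yp1*, 5.60 for *Yp2*, 4.57 for *Yp3*, 2.38 for *CG11141*, 1.25 for *CG5254*, 2.47 for *5-HT2B*, -2.11 for probe 12469 and -4.88 for probe 7194.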

How the results depend on the processing

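Against 27 female and 8 male calls, the counts became 55 and 23 with the dye orientation as a term, 11 and 6 at an adjusted p under 0.05, and 19 and 5 with values on all 4 arrays. They were 0 and 0 by a t-test against 0 on each probe's own variance, after Benjamini-Hochberg adjustment (699 at an unadjusted p under 0.05). That t-test used the 4 Canton S arrays, whereas the paper combined Canton S and Berlin and controlled the false discovery rate by another method. Leaving out 1 Canton S head array, the only arrays left out in any comparison, gave 13 to 63 and 6 to 17. Median centring, values on at least 2 arrays, Storey q-values, averaged probes and the omission of probes just after a called probe gave 20 to 37 and 6 to 11. The strain difference had 0 calls in each alternative except without replicate 3 (range 0 to 1). The tissue difference had 8 calls, 2 by the two-sample t-test, and 7 to 9 otherwise. With the replicate number as a block it had 8, of which 7 were shared (*CG5254* was lost and *Diedel* gained). Deviations of same-numbered head and CNS arrays correlated at -0.20 to 0.23, so the numbers were not taken as pairs. In the totals that follow, an uncalled result that stayed uncalled counts as kept. The t-test against 0 by itself lost 24 of the named calls. Of 922 alternative values of the 78 named results, 829 kept direction and side of the threshold, 68 lost the call, 16 gained it and 9 turned sign. The 9 belong to uncalled probes near 0: *tra2* was at -0.041 with its probes averaged, and over the fits without 1 array *fl(2)d* ranged from -0.042 to 0.292, *sc* from -0.033 to 0.125, *da* from -0.088 to 0.125, *tra2* from -0.12 to 0.192, *JIL-1* from -0.14 to 8.7e-04 and *Unr* from -0.12 to 0.186. The causes were not tested. The number of arrays and the missing values, 1463 probes having 2 values, 1597 having 1 and 4830 none, limit what could be called.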
